A study of Mus musculus with 6 samples.

Results

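Transcripts of 36 genes of the endothelium, the cell layer that lines blood and lymphatic vessels, were followed in RNA of sorted mouse mammary epithelial cells. The genes were taken by symbol from a list of endothelial receptors, junction proteins, surface glycoproteins, transcription factors and secreted proteins. No measured value enters the rule, but the list was drawn up with earlier results of these data known and is not independent of them. All 36 were found among the 54418 gene identifiers of the count table, and all 36 were among the 21236 genes that passed the filter on low counts. The libraries came from 4-week-old female C57BL/6 mice, 3 of them Glis2 WT and 3 carrying a germline Glis2 KO, so that the KO was present in every tissue and not only in the mammary epithelium. Each mouse gave 1 library of total RNA. The glands were digested to single cells, and live cells were sorted after staining for TER-119 on erythroid cells, CD31 on endothelial cells, CD45 on leukocytes, CD24 and CD49f. CD31 is the product of Pecam1, which is on the list. The gates used for these 6 sorts are not given in the sources used here.

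Endothelial cells are held together by adherens and tight junctions of their own composition, and they read vascular endothelial growth factors (VEGFs) and angiopoietins through receptor tyrosine kinases that few other cells carry. Transcription factors of the ETS and SOXF families control many of these genes, and Prox1 sets the lymphatic identity. In the growing mammary gland, capillaries and lymphatics run in the stroma around the ducts and not within the epithelium.

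The libraries held between 24996524 and 31393917 counts, and counts scaled to library size (CPM) were normalized by the TMM method of edgeR. Between any 2 libraries the counts differed by more than sampling noise, with a chi-square per degree of freedom of at least 15.1. Glis2 had 671, 663 and 510 counts in the Glis2 WT libraries and 252, 509 and 510 in the Glis2 KO libraries, and its KO/WT log2 fold change was -0.57 (SE 0.22, adjusted p = 0.906 by edgeR's quasi-likelihood test). Its CPM was lower in all 3 Glis2 KO libraries than in all 3 Glis2 WT libraries, but its transcript abundance corrected for length (TPM, rescaled over protein-coding genes) was 29.7, 38.4 and 18.4 in Glis2 WT and 30.6, 30.3 and 30.6 in Glis2 KO, with overlap. The count of the whole gene did not separate the labels past the test, and the deleted part of the gene was not measured on its own. Genes of the labelled epithelium were abundant: Krt8 and Krt18, keratins of luminal cells, had mean levels per length of 1905 and 1788, and Acta2, the smooth muscle actin of basal cells, of 1769. The basal keratins Krt14, Krt17 and Krt5 had 782.1, 557.8 and 392.7. These levels per length are the same rescaled TPM, the scale used below wherever genes are compared with each other. Stromal RNA was abundant too: the fibroblast collagen Col3a1 had 1537 ± 777 (SD, n = 6 libraries) on this scale, above Krt8 in 3 libraries (2322 against 1563 in Glis2 WT replicate 1, 2465 against 1847 in Glis2 WT replicate 3 and 1776 against 1521 in Glis2 KO replicate 3). Pecam1, the endothelial gene with the highest level per length, had 107.2 ± 47.9 (SD, n = 6 libraries).

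Endothelial transcripts were detected in every library, and none of the 36 genes passed the test between the genotypes. Their summed CPM was 2071, 593.5 and 1720 in Glis2 WT replicates 1, 2 and 3 and 1455, 877.4 and 2068 in Glis2 KO replicates 1, 2 and 3. The mean was thus 1461 ± 771.8 (SD, n = 3) in Glis2 WT and 1467 ± 595.2 (SD, n = 3) in Glis2 KO, a log2 ratio of 0.01, and the ranges of the genotypes overlapped. The spread lay between mice of the same genotype: the highest library had 3.49 times the level of the lowest, and replicate 2 was the lowest library of each genotype. In bulk RNA, fewer endothelial cells and less RNA per endothelial cell cannot be told apart. The 36 genes together took between 0.0592% and 0.211% of the counts of a library.

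**Figure D1:**
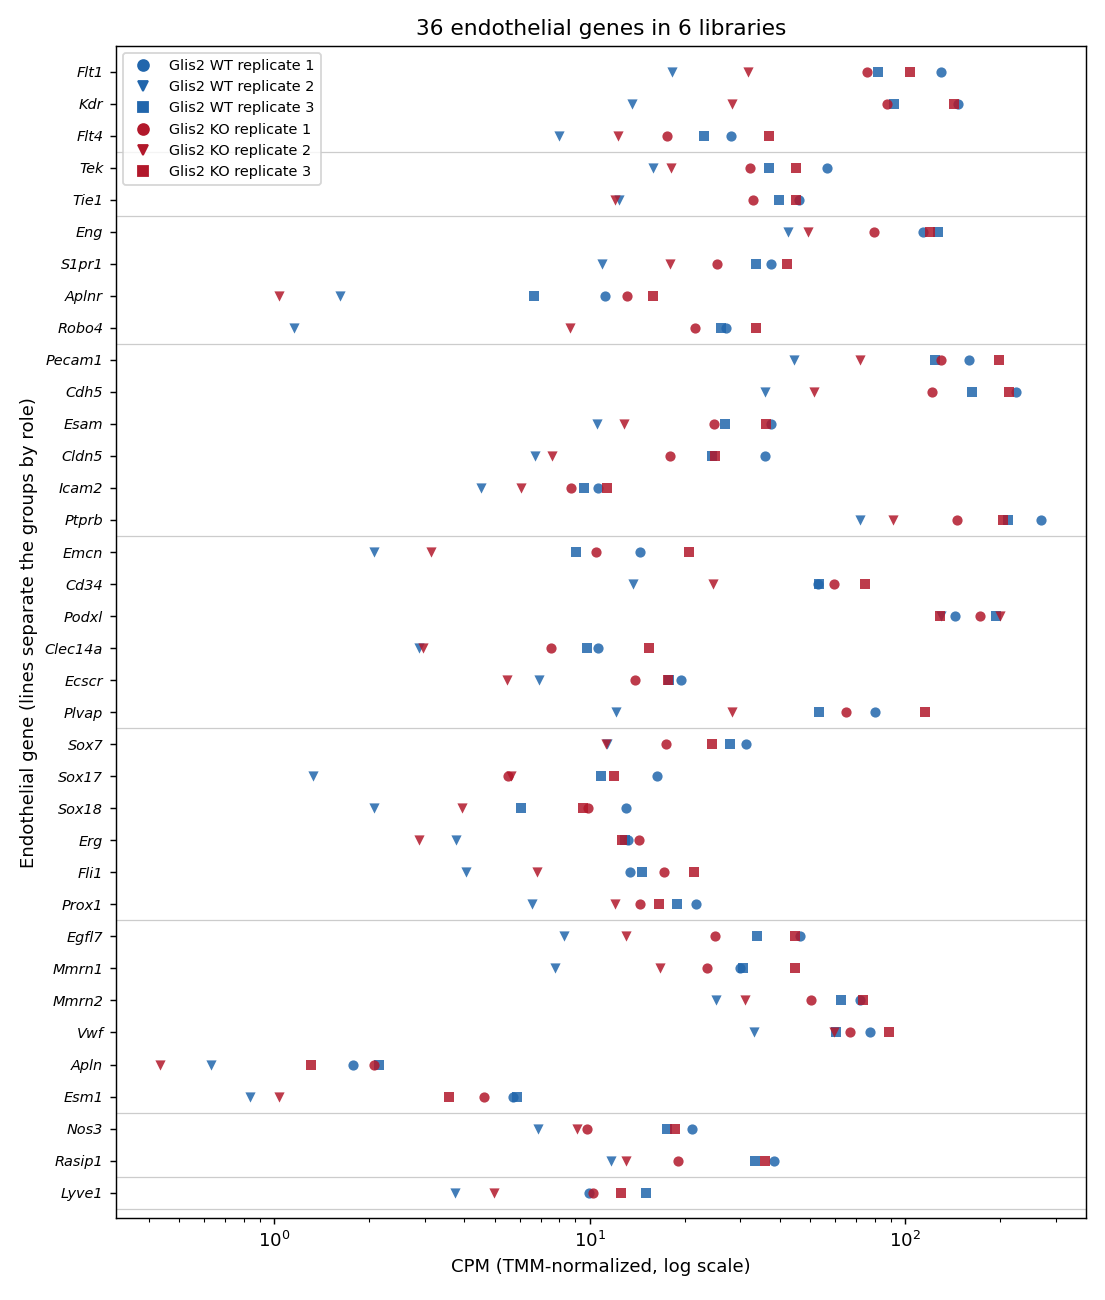
TMM-normalized CPM on a log axis for each of the 36 endothelial genes, grouped by role, with 1 point per library and the genotype and replicate given by colour and symbol. In 34 of the 36 genes the 2 lowest points are replicate 2 of Glis2 WT and replicate 2 of Glis2 KO, and Podxl has the narrowest range.

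Regulatory sequence is shown for 2 of these genes, Eng and Flt1. They were the ones with 1 RefSeq promoter entry, a match to GGAAGT on either strand and a window outside the annotated gene. GGAAGT holds the core of a motif bound by ETS factors, the family of Erg and Fli1 on the same list. The 250 bases before the start of each gene are from RefSeq on GRCm38.p6, written 5′ to 3′ on the strand of the gene, with the 6 letters GGAAGT or the reverse complement ACTTCC in capitals. The Eng window is chr2:32646345-32646594 on the plus strand and the Flt1 window is chr5:147726012-147726261 on the minus strand.
Eng: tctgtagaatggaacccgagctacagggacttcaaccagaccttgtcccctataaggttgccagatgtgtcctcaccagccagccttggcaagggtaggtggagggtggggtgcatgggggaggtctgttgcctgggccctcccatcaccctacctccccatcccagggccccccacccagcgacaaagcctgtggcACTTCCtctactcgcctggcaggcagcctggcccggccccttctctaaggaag
Flt1: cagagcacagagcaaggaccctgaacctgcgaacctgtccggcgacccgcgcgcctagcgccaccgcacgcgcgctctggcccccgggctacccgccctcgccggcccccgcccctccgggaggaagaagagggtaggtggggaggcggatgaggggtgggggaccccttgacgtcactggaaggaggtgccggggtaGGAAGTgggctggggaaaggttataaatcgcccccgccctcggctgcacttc
A RefSeq promoter entry was found for 18 of the 36 genes, 3 of them with more than 1 entry, which gave 23 promoters. On both strands, GGAAGT was present in 7 of the 23 promoters (of Flt1, Kdr, Tie1, Eng, Egfl7 and Mmrn1), against 19.7% of 32851 promoters of the same length. The composite FOX:ETS letters AACAGGAA were present in 2 of the 23 (of Emcn and Egfl7), against 2.25% of all promoters, and the SOX letters ACAAT in 7 of the 23, against 27.7%. AACAGGAA followed by GT holds GGAAGT, so these searches can overlap. These matches describe the letters of the window only.

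The VEGF receptors had the widest range between libraries of all groups. Kdr encodes VEGFR2, the main signalling receptor for VEGF-A on blood vessels. Kdr had 147.3, 13.6 and 92.5 CPM in Glis2 WT and 87.5, 28.3 and 143.2 CPM in Glis2 KO, replicates 1 to 3 in this order. Its lowest value was in Glis2 WT replicate 2 and the next in Glis2 KO replicate 2, and the other 4 libraries of the 2 genotypes were interleaved. The KO/WT log2 fold change of Kdr was 0.03 (SE 0.765, 95% interval -1.72 to 1.78). Flt1 encodes VEGFR1, which binds VEGF-A tightly and signals little, and Flt1 had 129.6, 18.3 and 81.9 CPM in Glis2 WT and 75.8, 31.7 and 103.4 CPM in Glis2 KO. The 6 libraries stood in the same order as for Kdr, and the log2 fold change of Flt1 was -0.12 (SE 0.626). Flt4 encodes VEGFR3, the receptor of lymphatic endothelium for VEGF-C and VEGF-D. It had 28.1, 7.98 and 23.0 CPM in Glis2 WT and 17.6, 12.3 and 37.2 CPM in Glis2 KO, again with replicate 2 lowest in each genotype, and a log2 fold change of 0.18 (SE 0.504). Summed over the 3 receptors, the highest library had 7.66 times the CPM of the lowest.

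The angiopoietin receptor Tek, also called TIE2, maintains vessel quiescence, and Tie1 is its co-receptor. Tek had 56.5, 15.9 and 37.0 CPM in Glis2 WT and 32.3, 18.1 and 45.2 CPM in Glis2 KO. The genotypes overlapped, with a log2 fold change of -0.20 (SE 0.450, 95% interval -1.22 to 0.83). Tie1 had 46.2, 12.4 and 39.9 CPM in Glis2 WT and 33.0, 12.1 and 45.1 CPM in Glis2 KO, the 2 replicates numbered 2 being nearly equal at the bottom. Its log2 fold change was -0.13 (SE 0.539).

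Of the other surface receptors, Eng (endoglin, a co-receptor for BMP9 and TGF-beta) was the most abundant, with a mean level per length of 84.6 ± 43.9 (SD, n = 6). Eng had 113.8, 42.5 and 127.3 CPM in Glis2 WT and 79.5, 49.1 and 120.1 CPM in Glis2 KO, with a log2 fold change of -0.19 (SE 0.419). Here Glis2 WT replicate 3 stood above replicate 1, but both libraries of replicate 2 were again the lowest. Robo4, a roundabout receptor that stabilizes vessels, had the widest range of the 36 genes, 27.0, 1.16 and 26.1 CPM in Glis2 WT and 21.6, 8.65 and 33.6 CPM in Glis2 KO. In counts, Robo4 had 33 in Glis2 WT replicate 2 against 832 and 680 in the other 2 libraries of that genotype, and between 259 and 1052 in Glis2 KO. The highest CPM of Robo4 was 29.1 times the lowest, and its log2 fold change was 0.24 (SE 0.873, 95% interval -1.76 to 2.23). S1pr1, the sphingosine-1-phosphate receptor of the endothelial barrier, had a log2 fold change of 0.05 (SE 0.452). Aplnr, the apelin receptor, had 11.2, 1.61 and 6.68 CPM in Glis2 WT and 13.2, 1.04 and 15.9 CPM in Glis2 KO. Its log2 fold change of 0.62 (SE 0.889, 95% interval -1.41 to 2.65) was the only one of the 36 beyond 0.58 in size, and 0 lay well within its interval.

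The junction and adhesion genes included the antigen of the sort. Pecam1 (CD31), on chromosome 11 at 106654217 to 106750628 of GRCm38, had 4931, 1273 and 3240 counts in Glis2 WT and 3261, 2160 and 6207 in Glis2 KO. In CPM these were 159.8, 44.6 and 124.3 in Glis2 WT and 130.3, 72.1 and 198.3 in Glis2 KO. RNA for this antigen was therefore present in all 6 libraries, least in Glis2 WT replicate 2. The log2 fold change of Pecam1 was 0.29 (SE 0.467, 95% interval -0.78 to 1.35). Cdh5, the VE-cadherin of endothelial adherens junctions, on chromosome 8 at 104101625 to 104144511, had 225.2, 35.9 and 163.5 CPM in Glis2 WT and 121.7, 51.5 and 212.9 CPM in Glis2 KO. The libraries stood in the same order as for Kdr and Flt1, and the log2 fold change was -0.14 (SE 0.640, 95% interval -1.60 to 1.33). Ptprb, the receptor phosphatase VE-PTP that acts on Tek and VE-cadherin, had 270.6, 72.0 and 211.9 CPM in Glis2 WT and 146.4, 91.8 and 204.4 CPM in Glis2 KO, and a log2 fold change of -0.33 (SE 0.445). Cldn5, the main claudin of endothelial tight junctions, had a log2 fold change of -0.41 (SE 0.583), Esam, an immunoglobulin-domain junction protein, of -0.02 (SE 0.474), and Icam2, a ligand of leukocyte integrins, of 0.08 (SE 0.367). All 6 genes of this group had their lowest value of each genotype in replicate 2.

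Among the sialomucins and other surface glycoproteins, 1 gene went its own way. Podxl (podocalyxin, a sialomucin that is also made by kidney podocytes and by some epithelia) had 143.7, 129.9 and 194.9 CPM in Glis2 WT and 172.5, 200.4 and 128.9 CPM in Glis2 KO. Its highest library was Glis2 KO replicate 2, and its lowest was Glis2 KO replicate 3, which was the highest Glis2 KO library for most of the other genes. The highest CPM of Podxl was 1.55 times the lowest, and its log2 fold change of 0.10 (SE 0.195, 95% interval -0.35 to 0.54) had the smallest error of the 36. Cd34, a sialomucin of capillary endothelium and of some stromal progenitors, had 53.1, 13.7 and 53.2 CPM in Glis2 WT and 59.3, 24.6 and 74.5 CPM in Glis2 KO, with a log2 fold change of 0.40 (SE 0.523). Plvap forms the diaphragms of capillary fenestrae and had 80.2, 12.1 and 53.2 CPM in Glis2 WT and 64.8, 28.3 and 115.7 CPM in Glis2 KO. The genotypes of both genes overlapped, and the log2 fold change of Plvap was 0.52 (SE 0.647, 95% interval -0.96 to 2.00). Emcn (endomucin of veins and capillaries) had a 10.0-fold range between libraries and a log2 fold change of 0.43 (SE 0.745), and the C-type lectin Clec14a and the surface protein Ecscr had log2 fold changes of 0.15 (SE 0.624) and -0.25 (SE 0.480).

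The transcription factors were among the less abundant genes of the list, whose median level per length was 19.1. The SOXF factors Sox7, Sox17 and Sox18, which act in arterial and lymphatic specification, had mean levels per length of 14.4, 12.4 and 11.3, and the ETS factors Erg and Fli1 of 10.8 and 15.5. Prox1, the factor of lymphatic identity, had 21.8, 6.58 and 18.9 CPM in Glis2 WT and 14.5, 12.0 and 16.6 CPM in Glis2 KO, with a log2 fold change of -0.13 (SE 0.391). Sox17 had 16.4, 1.33 and 10.9 CPM in Glis2 WT and 5.52, 5.64 and 12.0 CPM in Glis2 KO. It was the second gene in which replicate 2 was not the lowest Glis2 KO library, although replicates 1 and 2 of Glis2 KO were nearly equal. Fli1, also made by blood cells, had a log2 fold change of 0.50 (SE 0.523), Sox7 of -0.41 (SE 0.395), Sox17 of -0.31 (SE 0.719), Sox18 of 0.15 (SE 0.607) and Erg of -0.01 (SE 0.616). Lyve1, the hyaluronan receptor of lymphatic endothelium that some macrophages share, had 9.92, 3.75 and 15.1 CPM in Glis2 WT and 10.2, 4.97 and 12.6 CPM in Glis2 KO, and a log2 fold change of -0.05 (SE 0.503). For the lymphatic genes Flt4, Prox1 and Lyve1, the values of the genotypes overlapped and replicate 2 was the lowest of each genotype.

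Of the secreted and matrix proteins, Egfl7, an endothelial matrix protein that hosts a microRNA in an intron, had 46.4, 8.26 and 34.0 CPM in Glis2 WT and 24.9, 13.0 and 44.8 CPM in Glis2 KO. Its log2 fold change was -0.10 (SE 0.597). Vwf, the von Willebrand factor stored in endothelial granules and platelets, had 77.6, 33.2 and 60.5 CPM in Glis2 WT and 67.1, 59.6 and 89.0 CPM in Glis2 KO. Its log2 fold change of 0.33 (SE 0.285) had the smallest p of the 36 genes, at 0.276 before and 0.941 after adjustment by edgeR's quasi-likelihood test with Benjamini-Hochberg adjustment. The multimerins Mmrn1 and Mmrn2 had log2 fold changes of 0.32 (SE 0.514) and -0.05 (SE 0.403), Apln (apelin, the ligand of Aplnr) of -0.26 (SE 0.702) and Esm1 (endocan of sprouting tip cells) of -0.43 (SE 0.739), the most negative of the 36. Apln was also the least abundant of the genes, with a mean level per length of 1.02 and a lowest library of 13 counts. The intracellular Nos3, which makes nitric oxide, and Rasip1, an effector of RAS-family GTPases in vessel lumen formation, had log2 fold changes of -0.28 (SE 0.429) and -0.30 (SE 0.472).

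**Figure D2:**
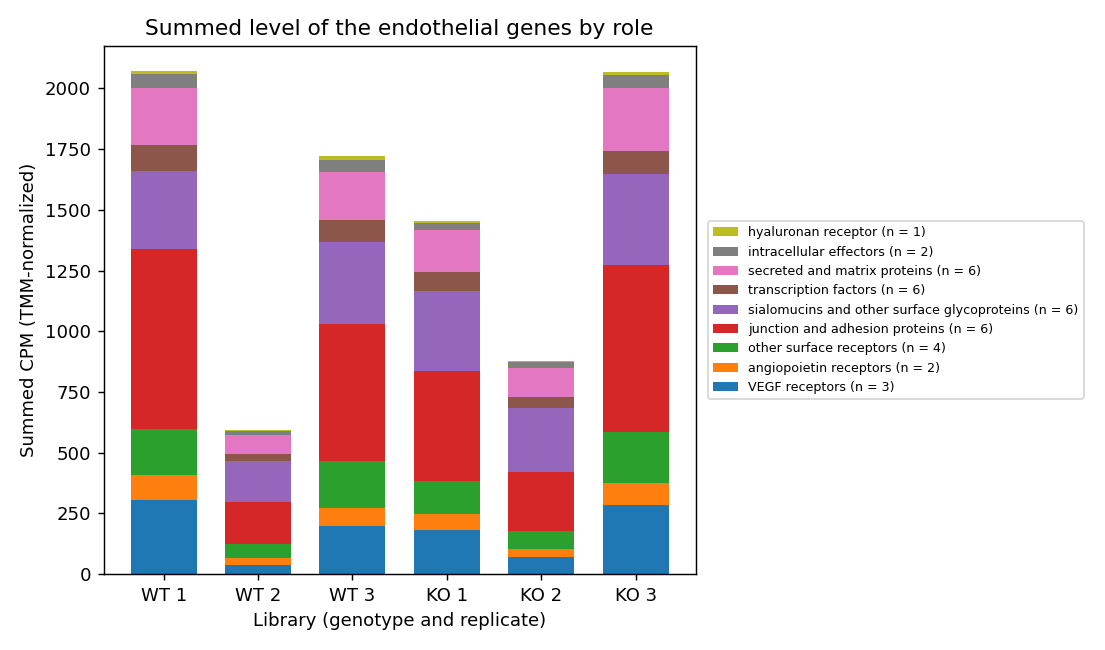
Summed TMM-normalized CPM of the 36 endothelial genes in each library, as bars that start at 0 and are stacked by role. The bars of WT 2 and KO 2 are the lowest of their genotype, at 593.5 and 877.4 CPM, and the part of the VEGF receptors goes from 39.8 CPM in WT 2 to 305 CPM in WT 1.

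Across the 36 genes, 0 passed the thresholds of the comparison (adjusted p at most 0.05, log2 fold change at least 0.58 in size), and 0% of all 21236 genes tested passed them. An unadjusted p of at most 0.05 was reached by 0 of the 36 genes against 5.32% of all genes, and the Glis2 KO and Glis2 WT libraries did not overlap in 0 of the 36 against 11.7% of all genes (6.23% higher and 5.5% lower in Glis2 KO). DESeq2 with apeglm called 45 of 37074 genes (0.121%) and 0 of the 36. The log2 fold change was positive in 16 and negative in 20 of the 36 genes, with a median of -0.03 against 0.01 for all genes tested. The 95% interval held 0 for 36 of 36 genes, and its width lay between 0.892 and 4.06, so that for most of these genes a change of the size of the threshold was not detectable with 3 mice per genotype. The median SE of the 36 was 0.519.

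**Figure D3:**
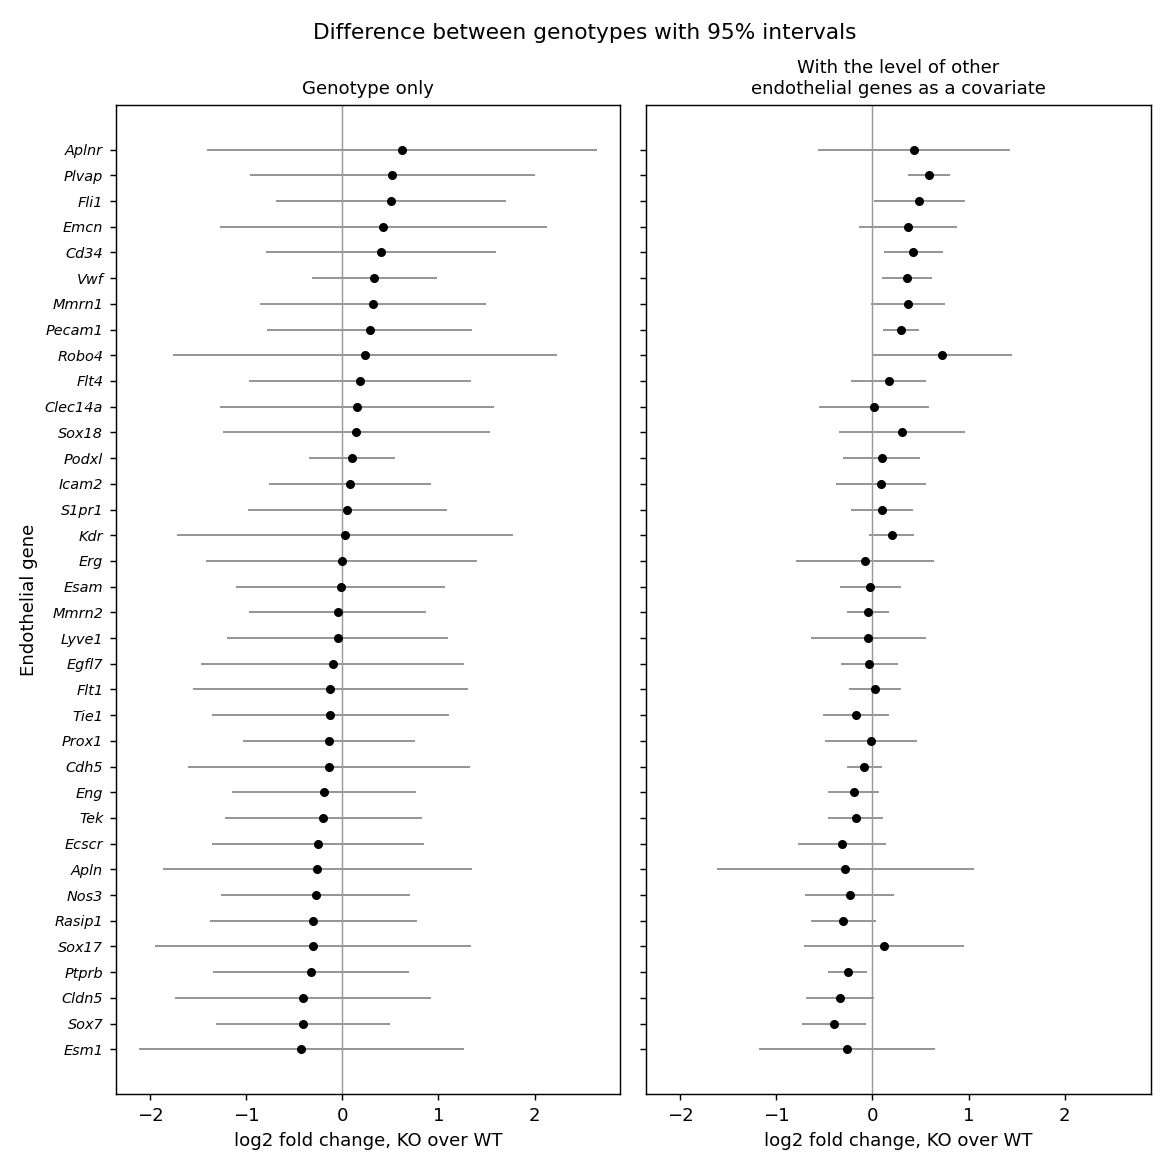
KO/WT log2 fold change of each of the 36 endothelial genes with its 95% interval (edgeR, n = 3 libraries per genotype). The left panel has genotype only, and the right panel adds the level of further endothelial genes as a covariate. On the left all 36 intervals cross 0, the narrowest being that of Podxl and the widest that of Aplnr. On the right, a fit added after seeing the data, the intervals of 7 genes leave out 0 (Plvap, Pecam1, Vwf, Cd34, Fli1, Ptprb and Sox7).

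The libraries stood in much the same order in most of the 36 genes. Glis2 WT replicate 2 was the lowest Glis2 WT library in 36 of 36 genes, against 35.2% of all genes tested, and Glis2 KO replicate 2 the lowest Glis2 KO library in 34 of 36, against 35.2%. These 2 libraries were the lowest of all 6 in 34 of 36 genes, against 11.3% of all genes, and the exceptions were Podxl and Sox17. Glis2 WT replicate 2 itself was the lowest of the 6 in 29 genes, against 19.9% of all genes, and Glis2 KO replicate 2 in 6, against 16.3%. The highest library was Glis2 WT replicate 1 or Glis2 KO replicate 3 in 30 of 36 genes, against 32.5% of all genes. The whole order, with replicate 1 above 3 above 2 in Glis2 WT and replicate 3 above 1 above 2 in Glis2 KO, was seen in 25 of 36 genes against 6.82%. Genes expressed in the same cells are not independent replicates, and no test was made of these counts.

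Podxl was set aside after its values were seen, since its ratios were 0.904 for Glis2 WT replicate 2 over 1 and 1.55 for Glis2 KO replicate 2 over 3. In the other genes, Glis2 WT replicate 2 had between 0.0428 and 0.428 times the CPM of Glis2 WT replicate 1, with a median of 0.279 over 35 genes. Glis2 KO replicate 2 had between 0.0653 and 0.723 times that of Glis2 KO replicate 3, with a median of 0.331. The ratio of the highest to the lowest library had a median of 4.80 over the 36 genes and of 2.02 over all genes tested, while the median absolute log2 fold change between the genotypes was 0.216 for the 36 genes and 0.214 for all genes. The biological coefficient of variation of edgeR had a median of 44.3% for the 36 genes against 29.8% for all genes.

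Leaving out 1 mouse at a time moved the sign of the median log2 fold change of the 36 genes, which lay between -0.41 without Glis2 WT replicate 2 and 0.33 without Glis2 WT replicate 1. Without Glis2 WT replicate 2, 3 of the 36 genes had an unadjusted p of at most 0.05 (Prox1, Sox7 and Ptprb, lower in Glis2 KO), against 6.03% of all genes, and 5 did not overlap between the genotypes (these 3, Esm1 and Ecscr, all lower in Glis2 KO), against 23.2%. Without Glis2 KO replicate 2, 3 genes did not overlap (Fli1, Aplnr and Cd34, higher in Glis2 KO), against 21% of all genes. None of the 36 passed the thresholds without any of the mice.

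A list of 35 further endothelial genes, such as the Notch ligand Dll4, the selectins Sele and Selp and the venous factor Nr2f2, gave the same kind of picture. Its summed CPM was 1890, 982.1 and 1693 in Glis2 WT and 1545, 1205 and 1996 in Glis2 KO, lowest in replicate 2 of each genotype. Replicate 2 was the lowest of both genotypes in 29 of the 35 genes, against 16.6% of all genes tested, a share that applies to the counts of this pattern in the other lists too. There were 16 positive and 19 negative log2 fold changes, with 0 past the thresholds and a median of -0.01. The 2 of these genes with the most counts, Heg1 and Tm4sf1, ranged 1.45-fold and 1.21-fold between libraries. In Glis2 WT replicate 2 they gave 312.2 and 199.5 of the 982.1 CPM of the sum, which ranged 2.03-fold between libraries. Ephb4, the receptor of venous endothelium for ephrin-B2, was the 1 gene of the 35 with an unadjusted p of at most 0.05 (against 5.32% of all genes) and the 1 without overlap between the genotypes (against 11.7%), with a log2 fold change of 0.30 (SE 0.116, adjusted p = 0.906 by edgeR), and it ranged 1.43-fold.

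Scaling each gene to the endothelial level of its own library narrowed the spread. When the CPM of each of 35 genes (Podxl left out) was divided by the summed CPM of the 35 in the same library, the ratio of the highest to the lowest library had a median of 1.81, against 4.95 for CPM. In these shares, 7 of the 35 genes did not overlap between the genotypes. Of all genes tested, 11.7% did not overlap in CPM and 2.94% when divided by the same sum. The division takes the spread of the sum out of the genes that make it up and adds it to the others, so that the 7 genes are a description and nothing is read from these shares of all genes. Plvap took 4.16%, 2.61% and 3.49% of the sum in Glis2 WT and 5.05%, 4.18% and 5.97% in Glis2 KO. Pecam1 took 8.29%, 9.61% and 8.15% in Glis2 WT and 10.2%, 10.7% and 10.2% in Glis2 KO. Both genes had a larger share in every Glis2 KO library than in any Glis2 WT library, as had Cd34 (mean 3.07% in Glis2 WT and 4.03% in Glis2 KO) and Fli1 (mean 0.843% and 1.15%). Ptprb took 14%, 15.5% and 13.9% in Glis2 WT and 11.4%, 13.6% and 10.5% in Glis2 KO. Ptprb, Cldn5 (mean 1.64% in Glis2 WT and 1.27% in Glis2 KO) and Rasip1 (mean 2.24% and 1.75%) had a smaller share in every Glis2 KO library. The shares add to a fixed total, so these genes do not vary independently, and both the scaling and the omission of Podxl were chosen after seeing the data.

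**Figure D4:**
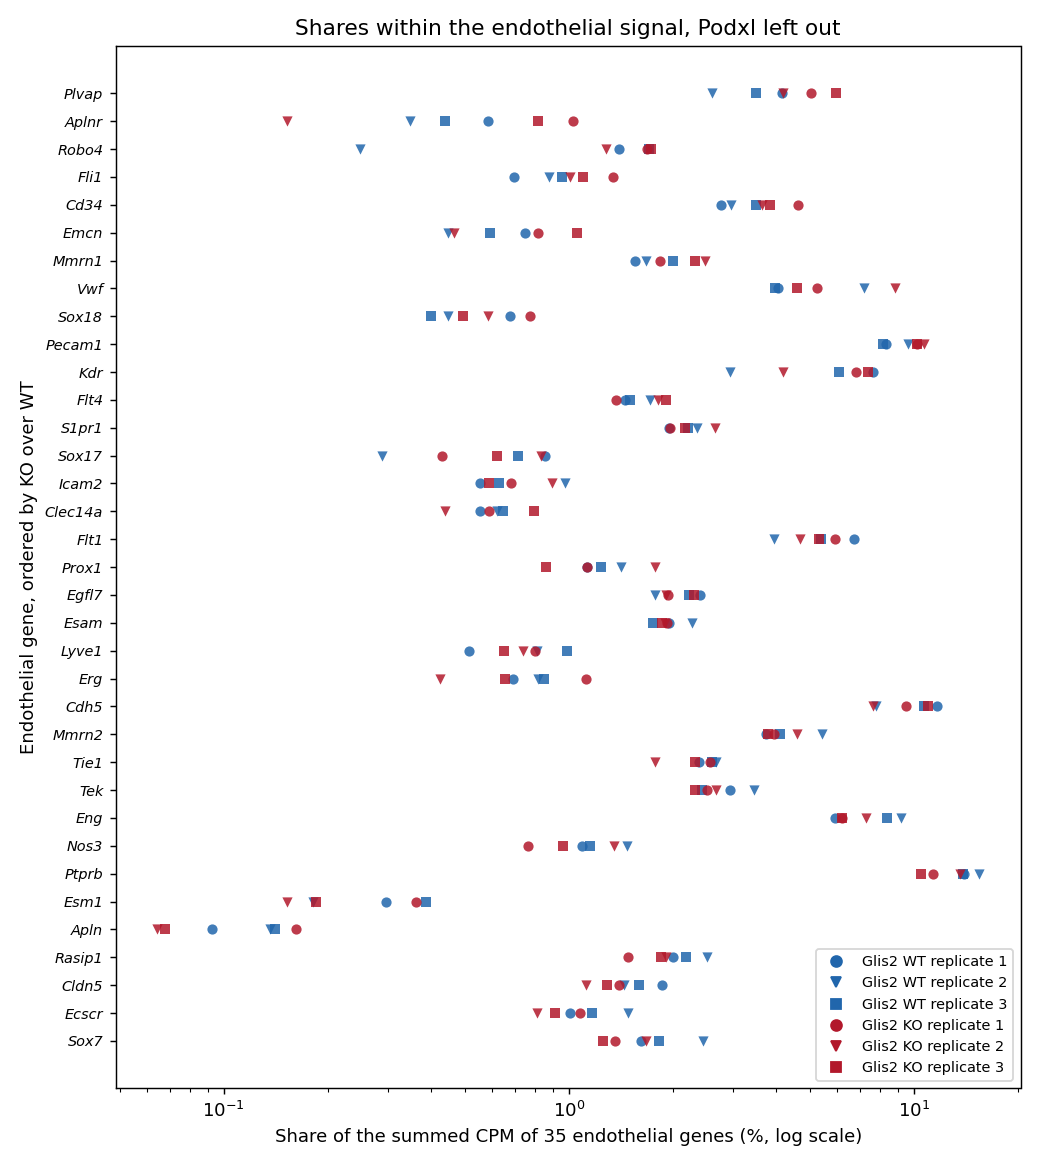
Share of each of 35 endothelial genes in the summed endothelial CPM of a library, in percent on a log axis, with 1 point per library and the genes ordered by the ratio of Glis2 KO to Glis2 WT. The points of the genotypes are separate for 7 genes: Plvap, Pecam1, Cd34 and Fli1 lie higher and Ptprb, Cldn5 and Rasip1 lower in the 3 Glis2 KO libraries.

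A fit with the mean log2 CPM of 35 further endothelial genes as a covariate was added after seeing the data. The median SE of the 36 genes was 0.166 in this fit, against 0.519 without the covariate. None of the 36 passed the thresholds, against 0.0659% of all genes, and 7 had an unadjusted p of at most 0.05, against 9.17% of all genes. Plvap had the smallest p, with a log2 fold change of 0.59 (SE 0.0992, adjusted p = 0.0755 by edgeR's quasi-likelihood test), and the others were Pecam1, Vwf, Cd34 and Fli1 with positive and Ptprb and Sox7 with negative values. With the replicate number as a block, 0 of the 36 passed the thresholds and 3 had an unadjusted p of at most 0.05 (Cd34, Fli1 and Plvap), against 6.06% of all genes. The labels do not say whether these numbers pair the libraries.

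The ligands and co-receptors of the pathway were split. Of 16 genes listed, 12 passed the filter (all but Angpt4, Apela, Gdf2 and Bmp10), with 5 positive and 7 negative log2 fold changes, 0 with an unadjusted p of at most 0.05 and 2 without overlap between the genotypes (Pgf higher and Sphk1 lower in Glis2 KO), against 11.7% of all genes. Vegfa, the ligand of Kdr and Flt1, had 91.7, 149.5 and 132.4 CPM in Glis2 WT and 108.1, 114.9 and 103.1 CPM in Glis2 KO, with replicate 2 the highest library of each genotype and a log2 fold change of -0.20 (SE 0.170). The co-receptors Nrp1 and Nrp2 followed the endothelial receptors instead: Nrp1 had 114.3, 23.9 and 93.3 CPM in Glis2 WT and 57.5, 21.8 and 87.6 CPM in Glis2 KO. Cxcl12, a chemokine of stroma and endothelium, had 134.3, 40.0 and 98.2 CPM in Glis2 WT and 122.8, 77.6 and 161.6 CPM in Glis2 KO, and a log2 fold change of 0.41 (SE 0.408). Replicate 2 was the lowest of both genotypes in 6 of the 12 genes.

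Most markers of fibroblasts and mural cells moved with the endothelial genes across the libraries. The summed CPM of 12 fibroblast genes, led by the collagens Col1a1 and Col3a1, was 8319, 2759 and 8684 in Glis2 WT and 4991, 3107 and 6800 in Glis2 KO. For 12 genes of mural cells, which wrap vessels, it was 743.2, 390.4 and 618.3 in Glis2 WT and 441.7, 387.5 and 603.9 in Glis2 KO. Both lists had replicate 2 as the lowest library of each genotype in their sums, and replicate 2 was the lowest of both genotypes in 9 of the 12 fibroblast and 9 of the 12 mural genes. The log2 fold change was positive in 4 and negative in 8 fibroblast genes, and positive in 1 and negative in 11 mural genes, with a median of -0.33 for the mural genes. Among the mural genes, 2 had an unadjusted p of at most 0.05 (Kcnj8 and Notch3), against 5.32% of all genes, 1 did not overlap between the genotypes (Notch3), against 11.7% of all genes, and 0 passed the thresholds. Notch3 did not share the order and was highest in replicate 2 of each genotype. It gave 234.3 of the 390.4 CPM of the mural sum in Glis2 WT replicate 2 and 202.3 of the 387.5 CPM in Glis2 KO replicate 2. The summed CPM of 9 adipocyte genes was 340.8, 86.3 and 242.1 in Glis2 WT and 193.6, 123.4 and 297.5 in Glis2 KO, but 293.6, 46.3 and 188.3 CPM in Glis2 WT and 156.6, 89.0 and 255.6 CPM in Glis2 KO came from Fabp4, which capillary endothelium also makes. Replicate 2 was the lowest of both genotypes in 3 of the 8 adipocyte genes tested, and Lipe, the hormone-sensitive lipase, was highest in Glis2 WT replicate 2 at 32.4 CPM. The log2 fold change was positive in 1 and negative in 7 of the 8, with 0 past the thresholds. An unadjusted p of at most 0.05 was reached by 1 (Plin1), against 5.32% of all genes, and 1 did not overlap (Adipoq), against 11.7%. The part of these cells in the endothelial values was not tested.

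Within each genotype, the sum of luminal epithelial genes stood in the opposite order. The summed CPM of 12 luminal genes was 4448, 7312 and 6336 in Glis2 WT and 6632, 7729 and 4458 in Glis2 KO, so that the 2 libraries with the lowest endothelial sums had the highest luminal sums. Replicate 2 was the highest of both genotypes in 6 of the 12 luminal genes (against 16% of all genes) and the lowest of both in 0. In Areg, Pgr, Esr1 and Prlr, Glis2 WT replicate 3 was the highest Glis2 WT library. In the other luminal genes of the list, Foxa1 among them, it was Glis2 WT replicate 2. The sum of 10 basal genes was 5696, 5285 and 4493 in Glis2 WT and 6387, 6108 and 7374 in Glis2 KO, and did not share the order. The sums of the basal genes did not overlap between the genotypes, and the log2 fold change was positive in 10 of 10 genes (median 0.42). By edgeR, 7 had an unadjusted p of at most 0.05 (against 5.32% of all genes), 3 did not overlap (against 11.7%) and 0 passed the thresholds. The 7 were Acta2, Myh11, Cnn1, Tagln, Myl9, Trp63 and Oxtr, without the keratins Krt5, Krt14 and Krt17. Tagln had an adjusted p of 0.0267 by DESeq2. The part of mural cells in the smooth muscle genes among them was not tested. Since CPM values add to a fixed total within a library, a larger share of one set of genes leaves less for the others, and the part of this in the result was not tested.

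**Figure D5:**
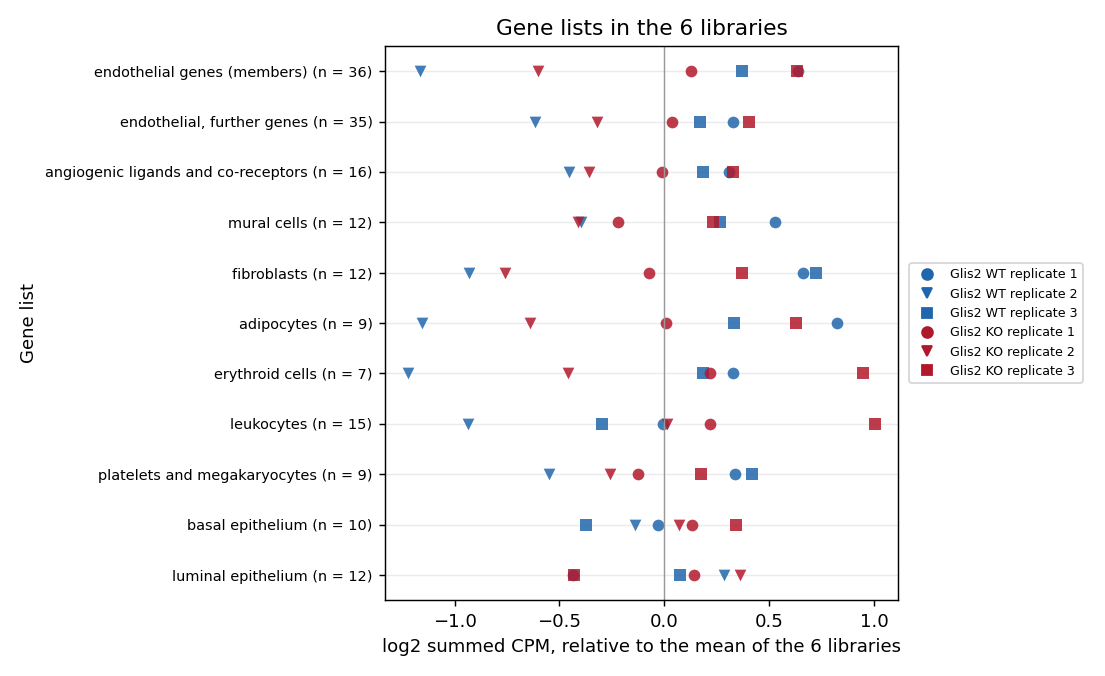
Summed CPM of the endothelial genes and of the other lists on a log2 scale, relative to the mean of the 6 libraries (line at 0), with 1 point per library and the number of genes of each list beside its name. The sums of the endothelial, fibroblast and mural genes are lowest in replicate 2 of each genotype and those of the luminal genes highest, and the sums of the adipocyte genes (most of it Fabp4), leukocyte, erythroid and platelet genes are lowest there too.

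Genes of blood cells were also checked: erythroid cells and leukocytes, for which the sort had antibodies, and platelets. All 3 sums were lowest in replicate 2 of each genotype, as for the endothelial genes, and the part of these cells in the endothelial values was not tested. Of 7 erythroid genes, 5 passed the filter on low counts, and the sum was 21.5, 7.35 and 19.5 CPM in Glis2 WT and 19.9, 12.5 and 33.0 CPM in Glis2 KO, with replicate 2 lowest of both genotypes in 4 of the 5. Of 9 platelet genes, Ppbp and Gp9 were at 0 in all 6 libraries, and the sum was between 5.85 and 11.4 CPM. The filter was passed by 4 of them, with replicate 2 lowest of both genotypes in 1 of the 4. The sum of 15 leukocyte genes was between 28.4 CPM in Glis2 WT replicate 2 and 109 CPM in Glis2 KO replicate 3, with replicate 2 lowest of both genotypes in 8 of the 15. It was 42.3 ± 13.0 (SD, n = 3) in Glis2 WT and 75.7 ± 29.2 (SD, n = 3) in Glis2 KO, with 12 positive and 3 negative log2 fold changes, 7 with an unadjusted p of at most 0.05 (against 5.32% of all genes) and 0 with an adjusted p past the threshold. Of the 7, Adgre1 was lower in Glis2 KO, with a log2 fold change of -1.56 (SE 0.656), and the others were higher. The genotypes did not overlap in 6 of the 15, against 11.7% of all genes. Ptprc, which encodes the CD45 of the sort, had 11.02, 7.98 and 9.67 CPM in Glis2 WT and 14.8, 14.5 and 38.7 CPM in Glis2 KO. Fli1 and Cd34, which leukocytes or their progenitors also make, had positive log2 fold changes in the same libraries, and the part of leukocytes in these values was not tested.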

How the data were processed

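Per the labels and the methods of the study, libraries were made from 1 ng of total RNA of sorted cells by a stranded total RNA kit for low input, with 15 cycles of PCR and, by the methods, a further round of 15 cycles after cleavage of ribosomal fragments. The authors estimated the counts per transcript with Salmon 1.2.1 on a transcriptome of mm10 with the genome as a decoy and summed them per gene with tximport. The deposited estimated counts are whole numbers without normalization. The authors also deposited log2(TPM + 1) values, from which levels per length were computed by rescaling TPM over protein-coding genes, which held 8.98% to 11.4% of all TPM. Reads that overlapping genes share were divided by Salmon's model.

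Symbols were found for 54096 of 54418 identifiers and gene types for 54166, with coordinates from a GRCm38 annotation. The counts were tested with edgeR 4.0.16 in R 4.3.3 (filterByExpr, TMM, quasi-likelihood test, genotype as the only term, all 6 libraries), with Benjamini-Hochberg adjustment over the 21236 genes tested and thresholds of 0.05 for the adjusted p and 0.58 for the size of the log2 fold change. SE values are the absolute log2 fold change divided by the square root of F. Alternatives were DESeq2 1.42.0 with apeglm 1.24.0, DESeq2 size factors or total counts in edgeR, no filter, at least 10 counts in every library, protein-coding genes only, log2(TPM + 1) and log2(TPM + 0.1) in limma 3.58.1, the replicate number as a block, and the omission of each library in turn. The fit with a covariate, the scaling to the endothelial sum and the omission of Podxl were chosen after seeing the data. The code was tested on simulated data. The genes and lists were chosen with earlier results of these data known. All 36 genes are named, and library values are given for Pecam1, Cdh5, Kdr, Tek, Flt4, Prox1, Lyve1, the 6 most abundant per length, the gene with the widest range and any without overlap between the genotypes. Values given for other genes (among them Flt1, Tie1, Aplnr, Ptprb, Podxl, Sox17 and Vwf, and Nrp1) were chosen after they were seen. Lists are described by counts and medians without a test. Each library came from 1 mouse, so that p-values measure the spread between 3 mice of a genotype.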

Additional observations from a re-analysis of the deposited data

How the results depend on the processing

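None of the 36 endothelial genes passed both thresholds under any alternative run. The count of all genes past them was 45 by DESeq2 with apeglm, 40 without a filter on low counts, 1 with log2(TPM + 0.1) in limma and 14 with the level of the further endothelial genes as a covariate, an alternative added after seeing the data. The count of endothelial genes with an unadjusted p of at most 0.05 was 3 with the replicate block, 7 with that covariate and 0 to 3 when 1 library was left out, with 3 without Glis2 WT replicate 2. The count without overlap was 0 to 5 when 1 library was left out, with 5 without Glis2 WT replicate 2 and 3 without Glis2 KO replicate 2. The log2 ratio of the summed level lay between -0.37 and 0.33 and the median log2 fold change between -0.41 and 0.33. Among the alternative values of the 12 genes named by rule, 28 reversed sign and 164 did not. When 1 library was left out the log2 fold changes reached -0.00866 to 0.74 for Cd34, -0.73 to 0.35 for Cdh5, -0.66 to 0.37 for Egfl7, -0.57 to 0.0852 for Eng, -0.41 to 0.52 for Flt4, -0.56 to 0.69 for Kdr, -0.43 to 0.44 for Lyve1, -0.13 to 0.65 for Pecam1, -0.078 to 1.08 for Plvap, -0.50 to 0.16 for Prox1, -0.31 to 0.63 for Robo4 and -0.55 to 0.25 for Tek. With log2(TPM + 1) in limma Flt4 was at -0.00881, and with the replicate block Cdh5 was at 0.00632, Prox1 at 0.0173, Lyve1 at 0.0551 and Egfl7 at 0.0472. The labels do not say whether the replicate numbers shared by the genotypes pair the libraries. The deviations of same-numbered libraries from their group means correlated with -0.04, 0.35 and 0.07. For libraries with different numbers the correlations lay between -0.36 and 0.346. Apart from the smaller number of libraries where 1 was left out, the cause was not tested.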
